A study of Mus musculus with 8 samples.

Results

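The 98 genes described here encode subunits of the mitochondrial oxidative phosphorylation machinery, with a few of its assembly factors and alternative tissue isoforms. They were taken by the beginning of the symbol, as every gene beginning with Nduf, Uqcr, Cox4, Cox5, Cox6, Cox7, Cox8, Atp5 or mt- that both deposited count tables listed, 98 of 17001 genes in all. Of these, 85 are nuclear genes and 13 are genes of the mitochondrial genome, and both kinds are kept apart throughout. A further 6 genes with these beginnings stood in only 1 of the tables and were not used here.

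Brain cells of male mice aged 24 months were profiled by droplet single-cell RNA sequencing with a 3' library kit, with molecules counted by unique molecular identifiers (UMIs). Wild-type mice (strain label C57BL/6) gave 2 gray matter libraries, from frontal cortex, and 2 white matter libraries, from corpus callosum, optic tract and medial lemniscus. Rag1-/- mice, which lack functional lymphocytes, gave 1 gray matter and 3 white matter libraries. Their strain label is NOD.129S7(B6)-Rag-1tm1Mom/J, whereas the methods of the study name a B6 line, and whether the backgrounds differed could not be settled. The methods state that 2 tissue samples were combined per library, whereas the study's list of mice gives other numbers, so how many mice a library holds is unsettled. Both genotypes were untreated, and gray and white matter of 3 pools of mice (wild-type pools 1 and 2, Rag1-/- pool 1) were sequenced as separate libraries. Live cells were sorted without a gate for a cell type. No doublet caller is named in the sources used here and none was run here, but for the Rag1-/- data alone the methods describe taking out a small group of cells rich in microglial genes. Here the 15604 cells that the deposited annotation calls oligodendrocytes were used in all 8 libraries, and 7421 annotated microglia in the 4 Rag1-/- libraries. Genotype coincided with the experiment and the software version, so these and the genotype cannot be told apart. It also coincided with the upper UMI limit per cell, and fits of cells under 20000 UMIs alone are among the alternatives. The methods name a further difference in software version between the batches of Rag1-/- mice.

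Oxidative phosphorylation passes electrons from NADH and reduced ubiquinone through complexes I, III and IV to oxygen, and complex V uses the resulting proton gradient to make ATP. Most subunits are encoded in the nucleus and imported, while the core subunits listed under mt- are transcribed inside mitochondria from a small circular genome. Mature oligodendrocytes support myelin and axons and can export lactate made by glycolysis, and microglia shift between oxidative and glycolytic metabolism when they become reactive.

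Grouped by symbol alone, the nuclear members gave 38 genes counted under complex I and 8 complex I assembly factors. A further 8 genes were counted under complex III, 17 under complex IV and 14 under complex V. The place of each protein was not checked, so Ndufa4 and Ndufa4l2 stand under complex I by their symbols only. The mt- genes encode 7 subunits of complex I (mt-Nd1 to mt-Nd6 and mt-Nd4l), 1 of complex III (mt-Cytb, cytochrome b), 3 of complex IV (mt-Co1, mt-Co2 and mt-Co3) and 2 of complex V (mt-Atp6 and mt-Atp8). On the mouse genome build GRCm38 with GENCODE annotation, 12 mt- genes lie on the plus strand of chromosome M and 1, mt-Nd6 (chrM:13552-14070), on the minus strand. Several of these genes overlap, and reads from a shared stretch could not be assigned to 1 gene with certainty. The coding sequences of mt-Atp8 and mt-Nd4l are shown because both genes share a transcript with a larger neighbour and behaved differently from the other mt- genes. Capitals mark the bases shared with mt-Atp6 (43 bases) and with mt-Nd4 (7 bases).
mt-Atp8 (chrM:7766-7969, plus strand, 204 bases): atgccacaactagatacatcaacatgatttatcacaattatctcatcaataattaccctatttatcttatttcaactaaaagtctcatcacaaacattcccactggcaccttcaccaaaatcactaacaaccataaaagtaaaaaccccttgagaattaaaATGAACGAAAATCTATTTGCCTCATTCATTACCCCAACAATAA
mt-Nd4l (chrM:9877-10173, plus strand, 297 bases): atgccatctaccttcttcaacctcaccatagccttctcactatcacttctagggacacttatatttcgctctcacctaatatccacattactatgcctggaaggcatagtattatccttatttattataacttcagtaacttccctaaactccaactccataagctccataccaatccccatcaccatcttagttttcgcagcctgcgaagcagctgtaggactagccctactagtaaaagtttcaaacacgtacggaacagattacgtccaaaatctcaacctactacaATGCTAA

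The libraries held 284 to 4106 oligodendrocytes with 2735825 to 43816134 summed UMIs, and 707 to 3617 microglia with 4812759 to 22160949. Defining markers matched the annotation: 6 myelin and oligodendrocyte genes summed to between 38900 and 46500 counts per 1000000 UMIs (CPM) in oligodendrocytes, and 6 microglial genes to between 26600 and 30000 CPM in microglia. Each CPM value is the summed UMIs of a gene scaled by all UMIs of that cell type in that library. Because counts are sums, fewer cells of a kind and less RNA per cell cannot be told apart. Wild-type batch 1 stood apart in mt- content. In its gray matter library 53 of 284 oligodendrocytes (18.7%, 95% Wilson interval 14.6 to 23.6%) and in its white matter library 70 of 494 (14.2%, 11.4 to 17.5%) had under 1% of UMIs in mt- genes, against at most 0.219% of oligodendrocytes in any other library. Such cells were common among microglia, at 8.78% of the gray matter library and 16.3, 13.2 and 9.60% of white matter libraries 1 to 3, and their part in the mt- comparisons of microglia was not tested. Cells above about 10% had been removed by the authors, which cuts off the upper end of every mt- share. Of the 28 pairs of libraries 20 shared cell barcodes, at most 15 in a pair (0.23% of the smaller library). The largest share of the smaller library, in another pair, was 0.321%.

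The mt- genes made up several percent of all oligodendrocyte UMIs, and the share varied more between libraries than any nuclear set did. In gray matter it was 3.95% and 7.35% in wild-type libraries 1 and 2, and 6.76% in the Rag1-/- library. In white matter it was 3.51% and 5.28% in wild-type libraries 1 and 2, and 4.99%, 5.57% and 5.49% in Rag1-/- libraries 1 to 3. Within each of the 3 pools the white matter library was below its gray matter partner, but the wild-type groups overlapped, with pool 1 low in both tissues. The wild-type means were 4.40% ± 1.25 (SD, n = 2) in white matter and 5.65% ± 2.40 (SD, n = 2) in gray matter, a difference of -1.25 percentage points with an exact two-sided permutation p of 0.667 (the smallest possible is 0.333). The permutation did not use the pairing by pool. Within pools the log2 ratio of the white over the gray matter share was -0.17 in pool 1 and -0.48 in pool 2. Without wild-type gray matter library 2 the difference turned to 0.446 points. That value sets white matter of both pools against gray matter of pool 1 alone. In white matter the Rag1-/- mean was 5.35% ± 0.314 (SD, n = 3), 0.955 points above the wild-type mean, with an exact two-sided permutation p of 0.2 (smallest possible 0.1). Leaving out wild-type white matter library 1 reduced that difference to 0.0683 points.

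The 85 nuclear genes together took a smaller and steadier share of oligodendrocyte UMIs. It was 1.89% and 1.80% in wild-type gray matter, 1.96% and 1.76% in wild-type white matter, 1.70% in Rag1-/- gray matter, and 1.70%, 2.09% and 2.12% in Rag1-/- white matter. The gray and white matter libraries of Rag1-/- batch 1 had the same share at this precision, and both white matter libraries of batch 2 were the highest of the 8. In every library the nuclear complex I genes formed the largest nuclear set, at 0.672 to 0.839% of UMIs, followed by complex IV, complex V and complex III.

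**Figure D1:**
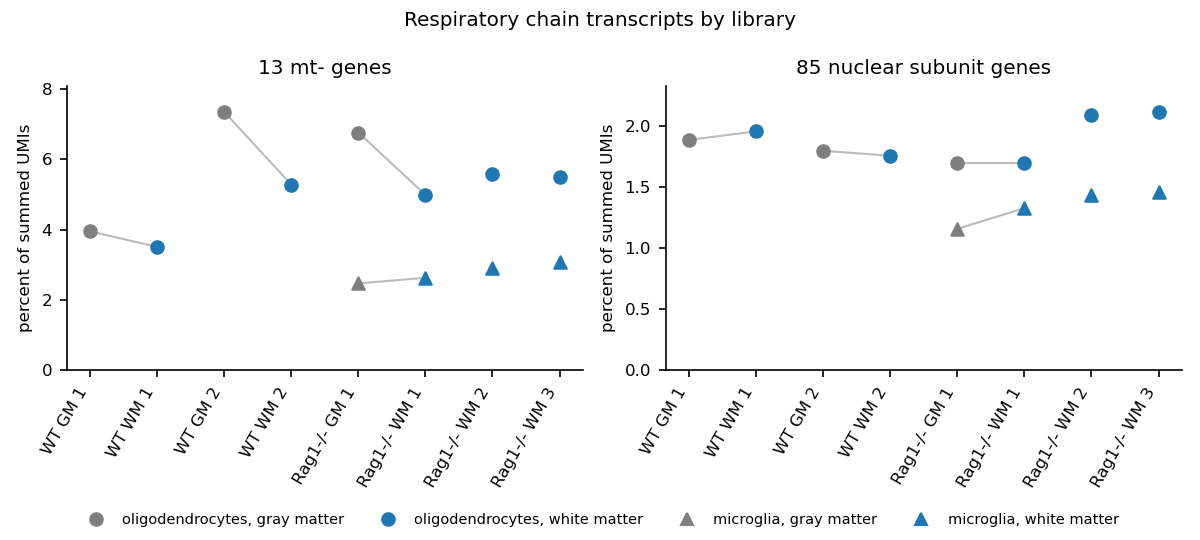
Percent of summed UMIs in the 13 mt- genes and in the 85 nuclear genes (8 of them assembly factors), for oligodendrocytes of 8 libraries and microglia of the 4 Rag1-/- libraries; each point is 1 library. The mt- share of oligodendrocytes ranged from 3.51 to 7.35%, and microglia lay below every oligodendrocyte library on both measures.

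Whether white and gray matter oligodendrocytes differ was asked first in wild-type mice, gene by gene. All 13 mt- genes had lower fitted levels in white matter, with a median log2 difference of -0.35 against -0.01 over all genes tested, but none passed the test across libraries. The 82 nuclear members tested centred on 0.01 and none was called. With edgeR's quasi-likelihood test and a Benjamini-Hochberg adjusted p under 0.05, 131 of 13067 genes were called, or 1.00%. Unadjusted p was under 0.05 for 2 mt- genes (mt-Nd6 and mt-Atp8) and 0 nuclear genes, beside 9.58% of all genes, and DESeq2 called 0 members of either kind, beside 2.16% of all genes.

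Gray and white matter libraries of a pool came from the same mice, and the mt- genes moved together within pools. With the pool as a block, 11 of 13 mt- genes were lower in wild-type white matter, beside 4.53% of all genes called lower (592 of 13067). None of the 82 nuclear members was called, where 10.0% of genes were called in either direction (2 nuclear members had an unadjusted p under 0.05). Among the mt- genes mt-Nd6, a complex I subunit, had the greatest drop. It overlaps mt-Nd5 by 14 bases on the opposite strand, and whether counting used the strand is not given in the sources used here. Its levels were 41.7 CPM in gray and 16.6 CPM in white matter of pool 1, and 69.8 and 37.5 CPM in pool 2. Both white matter values lay below both gray matter values, and the blocked log2 difference was -0.99 (SE 0.11, adjusted p = 1.36e-17 by edgeR). mt-Cytb had 4914 CPM in gray and 4277 CPM in white matter of pool 1, and 8245 and 5728 CPM in pool 2. White matter of pool 2 thus lay above gray matter of pool 1, and the blocked difference was -0.35 (SE 0.09, adjusted p = 0.0023). mt-Co2 and mt-Co3, core subunits of complex IV, missed the threshold (-0.23, adjusted p = 0.090, and -0.24, adjusted p = 0.088). Under the block 1 residual degree of freedom was left, and the p-values rest on the spread that edgeR pools over genes, which makes them far smaller than those without the block. That spread need not be the spread of a single gene between pools. The blocked SE of mt-Nd3 was 0.08, while its log2 ratios of CPM were -0.02 in pool 1 and -0.52 in pool 2. For mt-Nd4l, with the same SE of 0.08, the ratios lay closer, at -0.32 and -0.38.

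Rag1-/- oligodendrocytes were compared in the same way, with a single pool holding both tissues. Without the block 0 of 13 mt- and 0 of 82 nuclear members were called between white and gray matter, where 57 of 13067 genes (0.436%) were. Unadjusted p was under 0.05 for 2 mt- genes and 0 nuclear genes, beside 9.62% of all genes, and DESeq2 called 0 members, beside 1.59%. The lone gray matter library is assumed in these fits to vary like the other groups. With the pool as block this comparison rests on 1 gray matter library and its 1 white matter partner, and the spread comes from the wild-type pools alone, so the Rag1-/- pair is assumed to vary as they do. On that assumption 11 mt- genes were called lower in white matter, beside 2.40% of all genes called lower and 5.27% called in either direction, and 0 of 82 nuclear members (0 at an unadjusted p under 0.05). The mt- genes not called were mt-Nd4 and mt-Atp8. mt-Nd6 was at 89.0 CPM in gray matter and at 51.2, 44.4 and 39.6 CPM in white matter libraries 1 to 3. All white matter values were below the gray matter value, and within pool 1 the log2 ratio of CPM was -0.80. mt-Co1, the catalytic subunit of complex IV, was at 11768 CPM in gray matter and 8397, 9967 and 8567 CPM in white matter. It too was lower in each white matter library, with a log2 ratio of -0.49 within pool 1.

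Taken pool by pool without a test, 13 of 13 mt- genes were lower in white matter in wild-type pool 1, 13 of 13 in pool 2 and 12 of 13 in the Rag1-/- pool. Lower in all 3 pools were 12 of 13 mt- genes and 9 of 82 nuclear members, beside 24.0% of all genes. The median log2 difference of the mt- genes was -0.20, -0.52 and -0.43 in these pools, so pool 1 of the wild type moved least. The same comparison inside single oligodendrocyte clusters, where both tissues had at least 10 cells, gave a lower mt- share in white matter in 13 of 15 instances. The exceptions were the clusters Oligo1b (4.61% in white, 4.07% in gray matter) and Oligo2a (3.12 and 2.10%) of wild-type pool 1. Summed red blood cell genes in oligodendrocytes also differed between tissues, at 1320 CPM in wild-type gray matter 2 and 611 CPM in Rag1-/- gray matter against at most 87.3 CPM in white matter, with a count of 0 in both libraries of wild-type pool 1, which allows up to 1.1 and 0.503 CPM. The 5 astrocyte markers summed to between 227 and 262 CPM in gray and 92.9 and 138 CPM in white matter, though Gfap among them was called higher in white matter of both genotypes. The 6 microglial markers were lower in white matter of each pool (573 to 355, 79.7 to 58.8 and 224 to 176 CPM), as were the 5 neuronal markers (9.87 to 1.34, 7.92 to 1.94 and 11.3 to 0.979 CPM), of which Camk2a was called in both genotypes. Choroid plexus markers were higher in white matter of each pool (0 to 27.3, 1.84 to 28.6 and 7.95 to 32.9 CPM), and Ttr was called in the wild type (4.27, adjusted p = 0.0076). Malat1, a nuclear RNA, took a smaller share of UMIs in white matter of each pool (4.44 to 3.76, 3.90 to 3.54 and 4.90 to 4.66%). The part of any of these in the mt- difference was not tested.

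**Figure D2:**
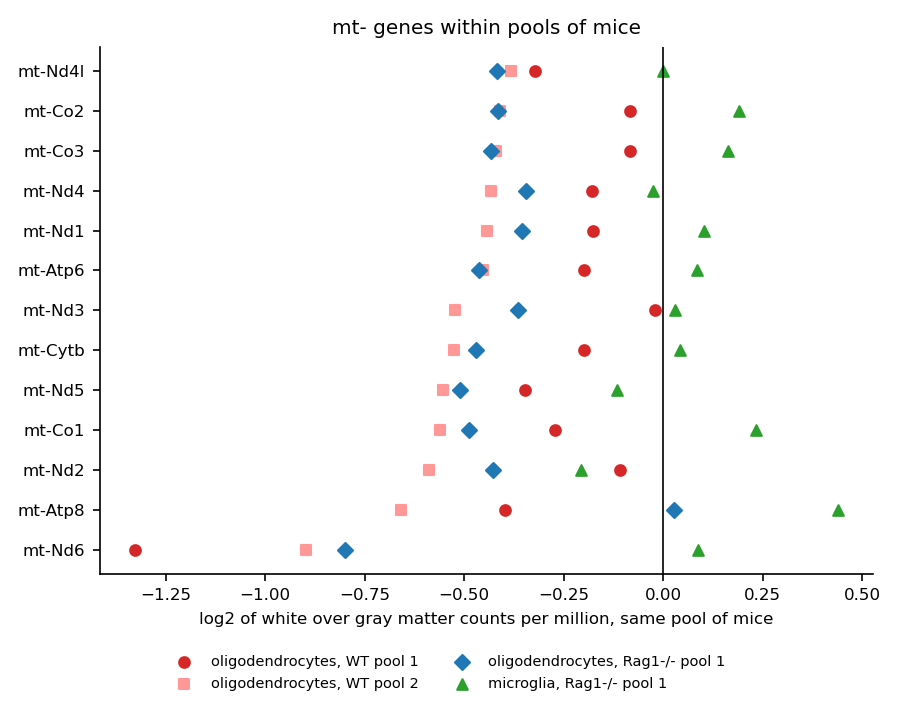
Difference of each mt- gene between white and gray matter of the same pool, as log2 of the ratio of CPM, for oligodendrocytes of 3 pools and microglia of Rag1-/- pool 1; the vertical line marks no difference. Oligodendrocyte points lie left of the line apart from mt-Atp8 in the Rag1-/- pool (0.03), mt-Nd6 lies farthest left, and the microglia points lie on both sides.

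The tissue difference itself was compared between genotypes. No gene was called in the fit without the block (0 of 13067, 0% called, 236 at an unadjusted p under 0.05, of which 0 were members). DESeq2 called 0 members, beside 0.0230% of all genes. The median of the mt- genes was 0.04 and that of the nuclear members 0.19 (76 of 82 positive), against 0.03 over all genes. The lean of the nuclear members was not kept with the pool as block, where more of them were negative than positive. All mt- genes apart from mt-Atp8 and mt-Nd6 were also negative there. With the pool as block 36 genes were called (0.276%), and mt-Atp8 was the single member among them, with a log2 difference of 0.56 (SE 0.13, adjusted p = 0.0147). This value again rests on a single Rag1-/- pair, with the spread taken from the wild-type pools. It fell in white matter of both wild-type pools (177 to 134 CPM and 155 to 98.4 CPM) and was 289 and 294 CPM in gray and white matter of the Rag1-/- pool.

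mt-Atp8, a small subunit of complex V, was also the single member called between genotypes in white matter. The gene lies ahead of mt-Atp6 on a shared transcript, and the libraries were made with a 3' kit. Whether its UMIs measure mt-Atp8 apart from mt-Atp6 was not tested. mt-Atp8 had 134 and 98.4 CPM in wild-type white matter libraries 1 and 2, and 294, 273 and 219 CPM in Rag1-/- libraries 1 to 3. The groups did not overlap, and the log2 difference was 1.23 (SE 0.16, adjusted p = 0.0061 by edgeR), where 119 of 13067 genes were called (0.911%, of which higher 0.704%). With cells under 20000 UMIs alone the difference was 1.24 (adjusted p = 0.0048). The adjusted p stayed under 0.05 in each alternative run, the largest being 0.0481 without wild-type white matter library 2. None of the 82 nuclear members was called (3 at an unadjusted p under 0.05, beside 8.29% of all genes, and 0 by DESeq2). In gray matter mt-Atp8 was at 177 and 155 CPM in wild-type mice and at 289 CPM in the Rag1-/- library, a log2 difference of 0.86 (SE 0.20) that missed the threshold (adjusted p = 0.294). There 70 genes (0.536%) were called, with 0 mt- and 0 nuclear members among them (3 and 2 at an unadjusted p under 0.05, beside 6.36% of all genes); DESeq2 called mt-Atp8 and no other member, beside 0.689% of all genes.

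The remaining mt- genes pointed the same way in white matter without passing the test. The median log2 difference of Rag1-/- over wild type was 0.45, all 13 were positive, and 7 of 13 had every Rag1-/- library above both wild-type libraries, beside 10.0% of all genes and 9 of 82 nuclear members. Without wild-type batch 1, which had the low-mt- cells, the median fell to 0.17 and 4 of 13 mt- genes were negative. The nuclear members had a median of 0.15 in white matter and -0.04 in gray matter.

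In the overlapping gene pairs, the level of the smaller gene relative to the larger one differed between libraries of the same group. In oligodendrocytes, UMIs of mt-Atp8 amounted to 2.43, 2.12, 1.16 and 1.01% of those of mt-Atp6 in wild-type gray 1, white 1, gray 2 and white 2. In the Rag1-/- libraries the gray matter figure was 2.06%, and the white matter figures were 2.90, 2.54 and 1.98%. Wild-type batch 1 thus overlapped with the Rag1-/- libraries in this ratio while batch 2 lay below both, and relative to mt-Atp6 the genotypes did not separate. For mt-Nd4l and mt-Nd4, both complex I subunits, the ratio was 12.2 to 14.5% in the wild type, 27.9 and 26.6% in gray and white matter of Rag1-/- batch 1, and 12% and 11.1% in white matter libraries 2 and 3, both of batch 2. Microglia showed the same split, at 38.9 and 39.6% in batch 1 and 12.1 and 11.7% in batch 2. The division by batch was found in both cell types and both tissues of batch 1. The methods name a different Cell Ranger version for each Rag1-/- batch, so batch and version cannot be told apart. Rag1-/- gray matter exists in batch 1 alone, so mt-Nd4l (1427 CPM in gray matter, 1068, 431 and 404 CPM in white matter libraries 1 to 3) carries the batch in any comparison of tissues without the block.

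**Figure D3:**
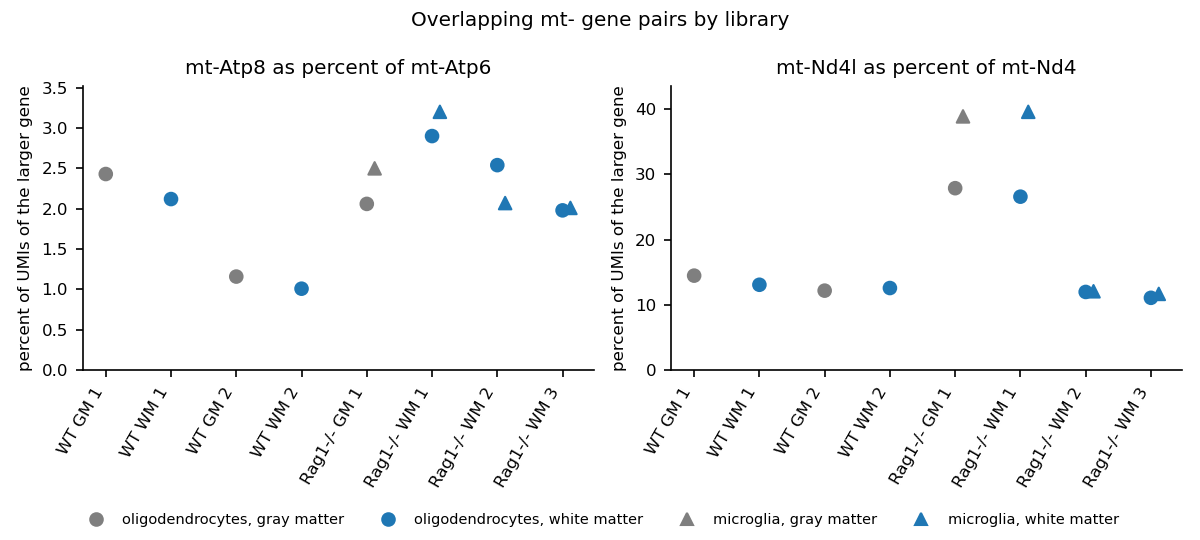
UMIs of mt-Atp8 as a percent of mt-Atp6 UMIs and of mt-Nd4l as a percent of mt-Nd4 UMIs, for each library and cell type. The Rag1-/- batch 1 libraries stand apart for mt-Nd4l, at 26.6 to 39.6% against 11.1 to 14.5% in the others.

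Microglia were compared with oligodendrocytes of the same library as a description, since the cell types were defined on these genes among others. All 13 mt- genes were lower in microglia in each of the 4 Rag1-/- libraries, with a median log2 difference of -0.87. Of 80 nuclear members with a mean level of at least 5 CPM in either cell type, 59 were lower and 9 higher in all 4 libraries, beside 42.6% lower and 41.4% higher of all 10725 genes at that level. Cox6a2, the heart and muscle isoform of subunit 6A of complex IV, was at 10.6, 71.7, 69.6 and 44.8 CPM in microglia of gray matter and white matter libraries 1 to 3, and at most 1.83 CPM in oligodendrocytes of any library. Cox7a2l, a factor in joining complexes III and IV, averaged 353 CPM in microglia and 148 CPM in oligodendrocytes. Ndufa1, an accessory subunit of complex I, averaged 130 and 85.6 CPM. The ubiquitous isoform Cox6a1 ran the other way, at 177 CPM in microglia and 326 CPM in oligodendrocytes.

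The other tissue isoforms were low. Cox6b2, the testis isoform of subunit 6B, had 3.77 to 8.40 CPM in oligodendrocytes and 2.31 to 5.25 CPM in microglia and was called in no comparison. Cox4i2, Cox7a1, Cox7b2, Cox8b and Ndufa4l2 did not exceed 2.19 CPM in either cell type, whereas their counterparts were abundant: Cox4i1 had 663 to 1086 CPM, Cox7a2 389 to 475 CPM, Cox8a 540 to 617 CPM and Ndufa4 325 to 403 CPM in oligodendrocytes. Cox7b2, Cox8b and Ndufa4l2 were too low to test in either cell type, and Cox4i2 was too low in microglia.

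In microglia of Rag1-/- mice 8 of 81 nuclear members tested were called higher in white than in gray matter and 0 lower, beside 2.95% of all genes called higher (355 of 12050) and 3.46% called in either direction, and 49 had an unadjusted p under 0.05, beside 15.7% of all genes. Gray matter was 1 library, so the spread comes from the 3 white matter libraries alone, with 2 residual degrees of freedom, and the gray matter library is assumed to vary as they do. Their median log2 difference was 0.44 against 0.02 over all genes. Complex IV led with a median of 0.78 and 5 of 14 genes called, complexes III and V had medians of 0.47 and 1 call each, complex I had 0.38 with 1 call of 37, and the 8 assembly factors had -0.02 with 0 calls. Of the mt- genes 1 of 13 was called, and their median was 0.40.

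Cox6a2 had the greatest difference of the members, from 10.6 CPM in gray matter to 71.7, 69.6 and 44.8 CPM in white matter libraries 1 to 3. Every white matter value was above the gray matter value, and the log2 difference was 2.79 (SE 0.31, adjusted p = 0.0054 by edgeR). The gene lies at chr7:128205435-128206387 on the minus strand of GRCm38. Cox4i1, the regulatory subunit 4 of complex IV, had 477 CPM in gray matter and 630, 766 and 829 CPM in white matter (0.87, SE 0.18, adjusted p = 0.046). Cox7c had 334 CPM against 448, 526 and 492 CPM (0.78, SE 0.15, adjusted p = 0.033), and Cox8a 422 CPM against 630, 592 and 616 CPM (0.77, SE 0.13, adjusted p = 0.023). Cox7c and Cox8a encode small structural subunits of complex IV, and their white matter values clustered closely above the gray matter value. Cox6b1, another structural subunit, had 247 CPM in gray and 314, 339 and 347 CPM in white matter (0.67, SE 0.14, adjusted p = 0.04999), just inside the threshold.

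Outside complex IV, Ndufa1 had 89.6 CPM in gray matter and 125, 159 and 145 CPM in white matter (0.90, SE 0.17, adjusted p = 0.034). Uqcrh, the hinge protein of complex III, had 294 CPM against 451, 434 and 455 CPM (0.84, SE 0.14, adjusted p = 0.017). Atp5e, the epsilon subunit of complex V, had 284 CPM against 365, 455 and 436 CPM (0.79, SE 0.17, adjusted p = 0.048). Uqcrh and Atp5e complete the list of called genes and were named after their values were seen. In each case all 3 white matter libraries exceeded the gray matter library. White matter libraries 2 and 3 came from another batch than gray matter, and were also higher in oligodendrocytes for some of these genes. Cox7c there had 593 CPM in gray matter and 574, 840 and 773 CPM in white matter. Atp5e had 284 CPM against 283, 386 and 381 CPM. The steps were smaller for Cox8a (553, 579, 617 and 610 CPM) and Uqcrh (295, 299, 335 and 348 CPM). The part of the batch in the microglial differences was not tested. Among mt- genes mt-Co1 was called, with 3419 CPM in gray and 4017, 4499 and 4259 CPM in white matter (0.55, SE 0.11, adjusted p = 0.038). mt-Nd1 had a larger fitted difference of 0.87 but was 1225 and 1315 CPM in gray and white matter of batch 1 against 2061 and 2346 CPM in batch 2 (adjusted p = 0.191).

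**Figure D4:**
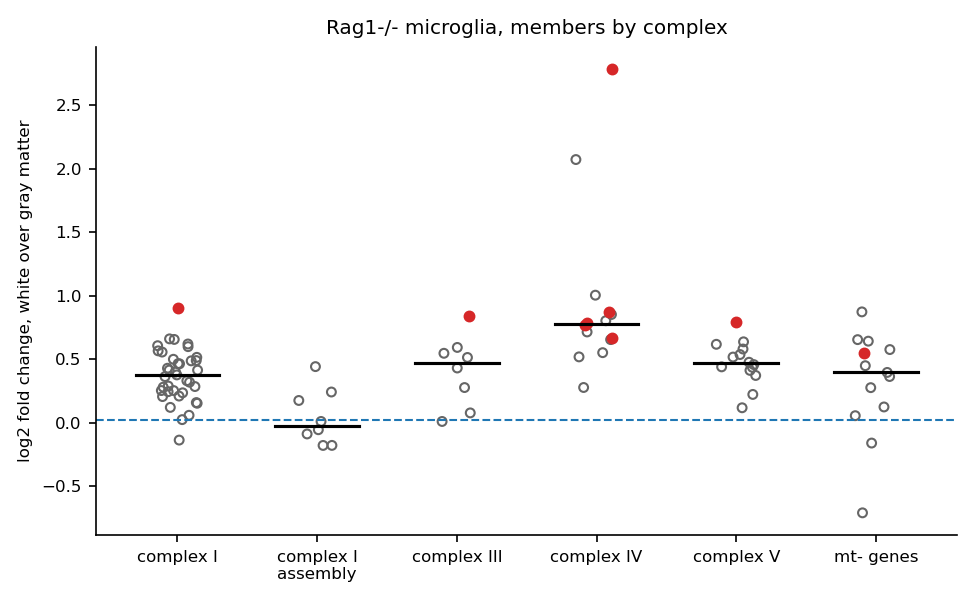
Log2 difference of white over gray matter in Rag1-/- microglia for each tested member, by complex; red points have an adjusted p under 0.05, black bars are medians of a set and the dashed blue line is the median of all genes tested (0.02). The complex IV genes centre on 0.78, the assembly factors on -0.02, and Cox6a2 is the highest red point at 2.79.

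This comparison set 3 libraries against 1, and 2 of the 3 came from another batch than the gray matter library. Within pool 1 alone the nuclear median was 0.12 log2 of CPM against -0.24 over all genes, and 57 of 81 nuclear members were higher in white matter. Across libraries 51 of 81 nuclear and 7 of 13 mt- genes were above gray matter in each white matter library, beside 16.3% of all genes. The calls depended on single libraries and on scaling. Without white matter library 1 the tissues coincide with the batches, and that fit cannot tell them apart. Leaving out white matter library 2 or 3 left Cox6a2 as the only called member, whereas leaving out library 1, the partner from the same pool, gave 53 nuclear members higher and 1 lower and 8 mt- genes higher and 2 lower, in a fit that called 24.7% of all genes (13.5% higher) against 1.40 and 2.36% without library 2 or 3. With total counts in place of TMM scaling the median of all genes moved to -0.22, the nuclear median was 0.20 and Cox6a2 alone was called, beside 3.72% of all genes.

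Ribosomal protein genes moved with the nuclear members. They took 10.1% of microglial UMIs in gray matter but 14.5, 16.0 and 15.6% in white matter libraries 1 to 3, and Malat1, a nuclear RNA, took 3.20% against 2.41 to 2.50%. Over the 19 combinations of microglia cluster and library with at least 10 cells, the share in nuclear members and the share in ribosomal genes had a Pearson r of 0.946 and a Spearman rho of 0.959, where points of a library share its depth and its cells. Over 55 such oligodendrocyte points r was 0.693 and rho 0.670. Oligodendrocyte markers in microglia summed to 302 CPM in gray matter and 321, 842 and 1490 CPM in white matter, with none of the 6 at 0 in every library. Red blood cell genes went the other way, with 750 CPM in gray and 25.9 to 83.8 CPM in white matter. Choroid plexus markers had 11.8 CPM in gray and 29.7 to 43.3 CPM in white matter, with Ttr called higher (1.89), and of the endothelial markers Flt1 was called higher (3.74) and Pecam1 lower (-1.54). The astrocyte marker Slc1a3 (-0.73) and the microglial markers P2ry12 (-0.72) and Tmem119 (-0.59) were called lower in white matter. Their lists did not fall as a whole: 3 of 5 astrocyte and 3 of 6 microglial markers had positive differences, with list medians of 0.31 and 0.04. The part of any of these in the microglial difference was not tested.

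The makeup of the microglia differed between the tissues. The cluster Homeostatic1 held 94.3% of gray matter microglia but 21.7, 35.1 and 42.3% of those in white matter libraries 1 to 3. Within Homeostatic1 alone the nuclear median was 0.11, and 0 nuclear and 0 mt- members were called by edgeR, with 1 of each at an unadjusted p under 0.05 and 5 of 10827 genes called in all. Cox6a2 there had a log2 difference of 0.94 (adjusted p = 1.00), from 8.76 CPM in gray matter to 11.3, 21.5 and 17.9 CPM in white matter.

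Described by cluster with no test, the nuclear share ran from Homeostatic1 (1.13 to 1.31% over 4 libraries) through Homeostatic2 (1.30 to 1.44%) and white matter-associated microglia (WAM, 1.25 to 1.67%) to Activated microglia (1.55 to 2.05%). Neighbouring ranges in this order overlapped, and Activated microglia had the highest share of these clusters within each library. Interferon-responsive microglia (IRMs) had a nuclear share of 0.958% in gray matter, and of 1.33 and 1.24% in white matter libraries 1 and 2, with 13 to 37 cells each. Against Homeostatic1 of the same library, 45 of 81 nuclear members were higher in Activated microglia in all 4 libraries and 6 lower, beside 4.25% of all genes higher and 52.6% lower. In WAM 35 were higher and 9 lower, beside 8.35 and 35.2% of all genes. Activated microglia numbered 27 to 112 cells per library, with a median of 2254.5 UMIs per cell in white matter library 2, and WAM 27 cells in gray matter. All 12050 genes tested were compared here, without the floor of 5 CPM used between cell types. How far low counts in so few cells shaped the figures of all genes was not tested. The median differences of the nuclear members were 0.39 and 0.21 on the log2 scale, while those of all genes were -0.98 and -0.36. Cox6a2 separated the clusters more than the summed share did. It had 8.76 to 21.5 CPM in Homeostatic1, 16.4 to 54.6 CPM in Homeostatic2, 53.9 to 130 CPM in Activated microglia and 69.6 to 166 CPM in WAM. The WAM and Activated values lay above all Homeostatic1 values, and in IRMs the gene had 125 and 114 CPM in white matter libraries 1 and 2 and a count of 0 in gray matter, which allows up to 32.9 CPM.

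**Figure D5:**
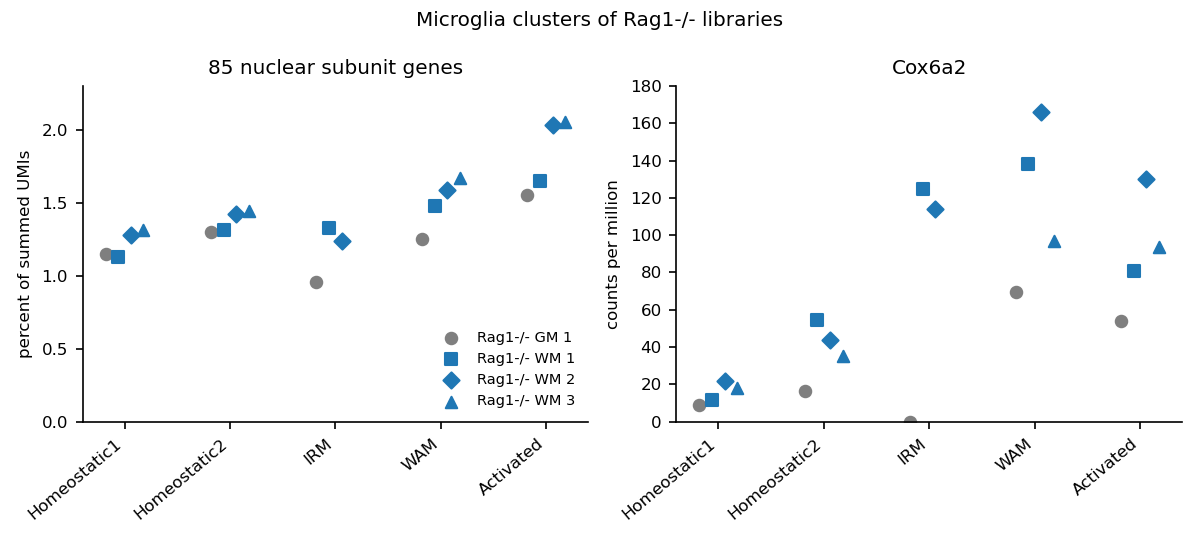
Percent of summed UMIs in the 85 nuclear genes (8 of them assembly factors), and CPM of Cox6a2, in 5 microglia clusters of the Rag1-/- libraries with at least 10 cells of a cluster; each point is 1 library. The nuclear share is highest in the Activated cluster and Cox6a2 reaches 166 CPM in WAM against at most 21.5 CPM in Homeostatic1.

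In oligodendrocytes the clusters differed little in the nuclear share. Over the 5 white matter libraries, which held at least 10 cells of every cluster, its medians ran from 1.84% in Oligo2c to 2.08% in Oligo1b. Age-related oligodendrocytes (AROs) had 1.98% (1.74 to 2.14%), interferon-responsive oligodendrocytes (IROs) 1.97% (1.67 to 2.21%) and Oligo1a 2.02% (1.75 to 2.20%). Oligo1a was above AROs in 5 of 5 libraries, but Oligo1b, with the highest median, in only 1 of 5. The mt- share over the same libraries had medians from 4.47% in Oligo2a to 6.11% in Oligo1b.

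The summed mt- share of the Rag1-/- libraries differed from gray to white matter by -0.34 on the log2 scale in oligodendrocytes and by 0.22 in microglia, as the ratio of the mean white matter share. Within pool 1 the values were -0.44 and 0.09, and the makeup of the microglia differed between its tissues as given above. By cluster of that pool the microglial share was higher in white matter in 4 of 5. It went from 2.44% in gray to 2.49% in white matter in Homeostatic1 and from 2.72 to 2.74% in WAM (27 gray matter cells). In Activated microglia it went from 2.85% over 27 gray matter cells to 3.41%, and in IRMs from 2.33% over 15 cells to 2.88%. The share was lower in Homeostatic2, from 3.49% over 29 cells to 2.58%. A joint edgeR fit with the library as block compared the tissue effect between microglia and oligodendrocytes. The difference (microglia minus oligodendrocytes) was positive for all 13 mt- genes, between 0.30 and 1.01. It was also positive for most nuclear members, and its median over all genes was 0.03. The fit held 1 gray matter library and left 2 residual degrees of freedom. The smallest adjusted p was 0.080, for mt-Nd6, so 0 members were called, where 40 of 13960 genes (0.287%) were.

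Genes related to oxidative phosphorylation were read from 7 further lists. In oligodendrocytes between tissues, 0 of 17 genes of the citric acid cycle and pyruvate dehydrogenase, 0 of 9 respiratory chain genes outside the prefixes, 0 of 15 complex IV assembly genes, 0 of 12 genes of mitochondrial DNA expression, 0 of 7 tested regulators of mitochondrial biogenesis and 0 of 8 mitochondrial carriers and channels were called in either genotype without the block, where 1.00 and 0.436% of all genes were. Of 17 glycolysis genes Aldoc, a brain isoform of aldolase, was lower in wild-type white matter. It had 52.3 and 37.7 CPM in gray and 23.3 and 14.4 CPM in white matter, without overlap (-1.26, SE 0.24, adjusted p = 0.048). Aldoc is also abundant in astrocytes, and Slc1a2, an astrocyte glutamate transporter, had 140 and 129 CPM in gray and 18.1 and 16.2 CPM in white matter of the same sums (-2.97, adjusted p = 0.043). The part of astrocyte RNA in the Aldoc difference was not tested. With the pool as block 3 glycolysis genes were higher (Gapdh, Aldoa and Ldha) and 3 lower (Aldoc, Ldhb and Pfkm) in wild-type white matter, 3 were lower in the Rag1-/- pair (Aldoc, Eno1 and Pfkp), and of the other 6 lists only Nrf1, a biogenesis regulator, was called (-0.42 in the wild type, adjusted p = 0.049), beside the blocked shares of all genes given above. Of 15 complex IV assembly genes Cox16 was higher in Rag1-/- white matter, at 12.5 and 18.8 CPM in the wild type against 62.6 to 70.2 CPM (2.20, SE 0.18, adjusted p = 0.00022 by edgeR). Its gray matter levels were 12.9 and 16.8 CPM in the wild type against 68.5 CPM in the lone Rag1-/- library (2.31). Genotype coincides here with the experiment and the software version, and these cannot be told apart. In microglia 4 of 17 glycolysis genes were called higher in white matter and 0 lower, beside 2.95% of all genes called higher, with a list median of 0.53 against 0.02 over all genes, and the other 6 lists had 0 calls. Tpi1, triose phosphate isomerase, had 85.3 CPM in gray and 159, 128 and 128 CPM in white matter (0.94, SE 0.18, adjusted p = 0.035), Pkm, a pyruvate kinase, 176 against 312, 249 and 252 CPM (0.86, SE 0.18, adjusted p = 0.048), and Aldoa, an aldolase, 254 against 426, 360 and 370 CPM (0.84, SE 0.16, adjusted p = 0.034).

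Promoters of the nuclear members were read for 3 motifs of factors known to control respiratory genes, in the 300 bases around each RefSeq start (250 before, 50 after; build GRCm38.p6, both strands). Of 85 nuclear members 70 were in the table. The 9 core letters of the NRF1 motif (GCGCATGCG) were found for 10 members, 14.3%, and for 1.95% of all 27025 genes in the table. Those of YY1 (AAGATGGCG) were found for 8 (11.4%) and for 1.64% of all genes, and the ERR motif (TCAAGGTCA) for 1 (1.43%) and 0.466%. Counted by promoter, 1.75, 1.40 and 0.423% of 32851 held them. None of the 6 microglia-called members with a promoter in the table held any of these letters. The 250 bases before the start of Cox6a1 are shown as the counterpart of Cox6a2, which was not in the table, with the NRF1 letters in capitals.
Cox6a1 (chr5:115348959-115349208, minus strand): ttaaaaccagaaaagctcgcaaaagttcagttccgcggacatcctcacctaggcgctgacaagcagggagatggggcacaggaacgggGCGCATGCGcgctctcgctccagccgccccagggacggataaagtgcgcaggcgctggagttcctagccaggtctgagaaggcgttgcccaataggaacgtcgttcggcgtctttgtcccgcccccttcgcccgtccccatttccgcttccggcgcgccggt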

How the data were processed

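The authors deposited raw UMI counts per cell for each genotype, with their own cluster labels, from Cell Ranger 4 on mm10 per the labels (the methods name 1 version for the wild type and another for each Rag1-/- batch). They kept cells with at most about 10% mitochondrial UMIs and under an upper UMI limit that differed between experiments. Gm42418 and AY036118 were left out here, and 4 libraries of another series named in the microglia annotation were not used. Counts were summed per library and cell type over the genes listed in both tables and tested with edgeR 4.0.16 (filterByExpr, TMM, quasi-likelihood, R 4.3.3) with Benjamini-Hochberg adjustment over all genes tested. Oligodendrocyte fits held all 8 libraries in 4 groups, and microglia fits the 4 Rag1-/- libraries. The n are libraries, so p-values measure the spread between libraries only. Those with the pool as block rest on a spread pooled over genes. Single shares were compared with exact permutation tests. Scripts were tested on simulated data. The depth of each library is given above, and intervals on shares cover counting error only.

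The symbol rule that gives the members and the gene lists were chosen with earlier results of these data known. Named genes were every mt- gene, the called nuclear members with the 3 largest and 3 smallest changes in a comparison, tissue isoform pairs, and up to 3 called genes of each further list. Pools pair gray and white matter because both came from the same mice, as the study's list of mice gives, and the deviations from group means correlated at 0.409 within wild-type pools (1 value, since 2 libraries a group deviate as mirror images, and none for the Rag1-/- pool) against -0.00954 to 0.138 between libraries of different pools. Alternatives were DESeq2 1.42.0, total counts as scaling, library sizes without mt- genes, no expression filter, cells under 20000 UMIs, cluster subsets, the pool as block and leaving out each library. Chosen after seeing the data were the subset of cells with at least 1% mt- UMIs, leaving out wild-type batch 1, Homeostatic1 alone and the joint fit of both cell types. Within-pool ratios used a pseudocount of 0.5 counts.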

Additional observations from a re-analysis of the deposited data

Results flagged for a closer look

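The summed mt- share of Rag1-/- libraries differed in direction between cell types, at -0.34 on the log2 scale from gray to white matter in oligodendrocytes and 0.22 in microglia: each white matter library was below the gray matter library in the former and above it in the latter. Within pool 1 the values were -0.44 and 0.09. A test of this difference on the share itself was not run, and in the joint fit of both cell types no mt- gene passed an adjusted p of 0.05. The tissue difference of mt-Atp8 in oligodendrocytes differed between genotypes by 0.56 on the log2 scale with the pool of mice as block, where a single Rag1-/- pair was set against the spread of the wild-type pools, and did not pass without it.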

How the results depend on the processing

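With the pool of mice as replicate block, the called mt- members rose from 0 to 11 of 13 between tissues in the wild type, from 0 to 11 in Rag1-/- mice and from 0 to 1 for the difference between genotypes, and the block changed no nuclear count. Both Rag1-/- values rest on 1 gray and white matter pair, with the spread from the wild-type pools alone. The pool could not be fitted as block for microglia, where no other pool with both tissues gives a spread. Nor could it be fitted between genotypes, since no pool held both. A fit of microglia with the batch as block was not run. Without white matter library 1, tissue and batch coincide in the Rag1-/- libraries of both cell types. Rag1-/- gray matter could not be left out of comparisons that need it. In microglia the nuclear calls, 8 in the report, became 23 with DESeq2, 1 with total counts, 14 without a filter and 0 in Homeostatic1 alone, and 1 to 54 when single libraries were left out. All genes were called at 4.74, 3.72, 3.63 and 0.0462% in these 4 settings and at 1.40 to 24.7% with libraries left out, against 3.46% in the report. The mt- calls, 1 in the report, became 3 with DESeq2, 0 with total counts, 3 without a filter, 0 in Homeostatic1 alone and 0 to 10 when single libraries were left out. Between tissues of Rag1-/- oligodendrocytes leaving out a library gave 0 to 3 nuclear calls (Atp5g3, Cox7b and Ndufb3, higher, without white matter library 1, where 2.11% of all genes were called) and 0 to 1 mt- call (mt-Nd4l, lower, without the same library). In gray matter between genotypes DESeq2 and Oligo2 alone each gave 1 mt- call, mt-Atp8, where 0.689 and 0.632% of all genes were called. The wild-type difference in mt- share ranged from -2.95 to 0.446 points over libraries left out, turning positive without gray matter library 2. That positive value sets white matter of both pools against gray matter of pool 1 alone. The Rag1-/- difference in white matter ranged from 0.0683 to 1.84 points. The cause of these changes was not tested. For the single members called without the block, 33 alternative values missed the threshold and 65 kept their side of it, and none of these turned direction. Members not called were left out of these counts.

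Rag1-/- mice had 1 gray matter library, microglia 2 residual degrees of freedom, and wild-type batch 1 the fewest oligodendrocytes of the libraries (284 and 494).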
